A study of Homo sapiens with 55 samples.

Results

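The introns described here end at either of 2 acceptor sites that lie 10 to 30 nt apart, so a transcript gains or loses a stretch of 10 to 30 bases with the choice. They were taken from the deposited splicing events as every alternative 3′ splice site event with exactly 2 junctions whose intron lengths differ by 10 to 30 nt. The rule found 2773 such pairs among 110816 splicing events, and among 32660 events with 2 alternative acceptors. The value of a pair is the usage of its upstream acceptor, the one nearer the branch point, in percent of the transcripts counted for that event. The remainder used the downstream acceptor.

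The acceptor is the AG at the 3′ end of an intron. In the first steps of splicing U2AF1 touches this AG, U2AF2 binds the pyrimidine-rich tract before it, and the U2 snRNP with its subunit SF3B1 takes up the branch point further upstream. Mutant SF3B1 is known for the use of weak AGs a short way upstream of the usual acceptor, and SUGP1 is a G-patch protein whose contact with SF3B1 is weakened by such mutations. GPATCH8 is another G-patch protein, and the study was designed to find what its deletion does to splicing with and without splicing factor mutations.

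RNA was sequenced from K562 cells, a leukemia line, and from 293T cells, a line of embryonic kidney origin. The K562 cells of the SF3B1 panel had a K700E knock-in or wild-type (WT) SF3B1, each with guides against SUGP1 (sgSUGP1, 2 libraries), against GPATCH8 (sgGPATCH8, 2 libraries) or against Renilla luciferase as control (sgRenilla, 1 library). The SRSF2 panel was K562 overexpressing SRSF2 P95H or SRSF2 WT, and the U2AF1 panel was K562 overexpressing U2AF1 S34F or U2AF1 WT, each with sgGPATCH8 or sgRenilla and 3 libraries per group. The 293T panel had 4 sgSUGP1 libraries and 4 sgGPATCH8 libraries, from 2 guides each, against 2 sgRenilla libraries. SRSF2 and U2AF1 mutants and their WT forms were thus both overexpressed, while K700E cells were compared with K562 lacking the knock-in. Each pair of SF3B1 libraries with 1 target came from 2 guides. The 293T libraries carry the names WT-1 and WT-2, whose meaning was not settled, and the sgRenilla libraries are all WT-1, which leaves WT-2 without its own sgRenilla. Under each target and replicate number a WT-1 and a WT-2 sample stand beside data columns for both guides. Whether the names mark the guides is not stated. Nothing says that libraries of a group came from separate cultures, so p-values measure the spread between these libraries, which may be technical.

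The files give usage fractions, with no read numbers and no gene levels, so the depth behind a value is unknown and neither the loss of GPATCH8 or SUGP1 nor the identity of the cells could be checked by expression. A pair was tested in a panel where every library had a value and the group means were not all under 5% or all over 95%. This left 1281 pairs for SF3B1, 1011 for SRSF2, 1052 for U2AF1 and 1205 for 293T. Of all 2773 pairs, 787 were tested in all 4 panels, 1541 in at least 1, and 1232 in none. In the 4 panels 644 to 753 pairs lacked a value in at least 1 library, and 848 to 1062 were near 0 or 100% in every group. A pair was called where limma's adjusted p, over all tested events of the panel, was under 0.05 and the usage differed by at least 5 percentage points. Changes on the log2 scale are of the ratio of upstream to downstream use.

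The pairs had a median distance of 20 nt, and 1235 of them (44.5%) were a multiple of 3 apart and so keep the reading frame where they are coding. A gene name was found for 2671 pairs in 2283 genes. Both acceptors were annotated for 1783 of the named pairs, only the upstream one for 465 and only the downstream one for 423. Where annotated transcripts hold the bases, the 2 letters before the stretch were AG in 812 of 822 pairs and the stretch ended in AG in 2351 of 2361.

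The sequences below show the letters around both acceptors for pairs on which the results turn. Capitals mark the stretch between the acceptors, which stays in the exon when the upstream acceptor is used. The last 2 capitals are the downstream AG, and where intron bases are given the 2 lower-case letters before the capitals are the upstream AG. All are read 5′ to 3′ on the strand of the gene from GENCODE 29 transcripts, build GRCh38. In these 5 pairs the upstream acceptor was used more with K700E.
APBB3, chr5:140561690-140561752, minus strand: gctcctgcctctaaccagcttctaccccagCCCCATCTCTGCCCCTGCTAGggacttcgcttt
MYRF, chr11:61783468-61783524, plus strand: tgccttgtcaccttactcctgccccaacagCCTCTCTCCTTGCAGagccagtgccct
HSF4, chr16:67167431-67167486, plus strand: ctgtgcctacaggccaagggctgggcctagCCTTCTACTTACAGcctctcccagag
ERCC3, chr2:127289490-127289549, minus strand: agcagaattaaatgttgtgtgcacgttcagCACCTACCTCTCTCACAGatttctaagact
METTL5, chr2:169812495-169812554, minus strand: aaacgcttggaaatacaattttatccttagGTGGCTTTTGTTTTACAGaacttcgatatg
In the next 3 pairs it was used less with K700E.
WRAP73, chr1:3632306-3632368, minus strand: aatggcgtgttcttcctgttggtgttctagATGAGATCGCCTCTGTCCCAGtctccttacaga
ZNF561, chr19:9618155-9618179, minus strand: GGTTTTTTTCCAGggaaccaatctg
PLEKHH2, chr2:43726272-43726293, plus strand: TTTCCTTTAGgtcagatcaaac
KHDC4, picked with the next 2 pairs for a small spread of group means over the SF3B1 panel, had the smallest (3.25 points) and is not shown. Before its closing AG the KHDC4 stretch was 57.7% C and T, against 100% in PHF1 and 90% in GPS1. The next 2 pairs had group means within 4.5 points of each other over the whole SF3B1 panel.
PHF1, chr6:33414925-33414977, plus strand: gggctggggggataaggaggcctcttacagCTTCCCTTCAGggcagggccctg
GPS1, chr17:82054468-82054521, plus strand: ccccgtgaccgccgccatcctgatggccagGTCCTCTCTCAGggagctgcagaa
The last 4 pairs were called for sgGPATCH8 in both the SRSF2 and the U2AF1 panels and were chosen after their values were seen.
STRN4, chr19:46727535-46727597, minus strand: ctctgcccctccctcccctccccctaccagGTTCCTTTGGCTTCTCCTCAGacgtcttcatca
ATF6B, chr6:32117096-32117130, minus strand: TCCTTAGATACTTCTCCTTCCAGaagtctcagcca
CC2D1B, chr1:52357887-52357946, minus strand: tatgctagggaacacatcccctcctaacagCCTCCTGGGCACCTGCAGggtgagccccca
TRIP12, chr2:229793119-229793175, minus strand: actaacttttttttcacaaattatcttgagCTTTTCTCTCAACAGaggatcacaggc

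With K700E the upstream acceptor rose in 73 of 1281 tested pairs and fell in 14. This comparison takes the mean of the sgSUGP1, sgGPATCH8 and sgRenilla differences, with 5 libraries per genotype. Over all 50804 tested events of any kind 2.15% rose and 1.22% fell in this comparison. The distance of 10 to 30 nt had been picked with these counts known, so the counts describe the pairs and are no separate evidence for that distance. Within the range the share that rose was 8.11% of 222 pairs at 10 to 14 nt, 7.16% of 391 at 15 to 19 nt, 4.76% of 357 at 20 to 24 nt and 3.22% of 311 at 25 to 30 nt. Outside it 1.74% of 6559 pairs 3 nt apart rose, 1.52% of 789 at 4 to 9 nt, 1.64% of 2378 at 31 to 150 nt and 2.38% of 755 over 150 nt. At the edges, 3 of 65 pairs rose and 0 fell at 9 nt, 2 of 52 rose and 3 fell at 10 nt, 3 of 57 rose and 1 fell at 30 nt, and 0 of 56 rose or fell at 31 nt. The share of fallers was 0.28% to 2.25% in the 4 classes within the range and had no such order, and it was 2.78% over 150 nt.

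**Figure D1:**
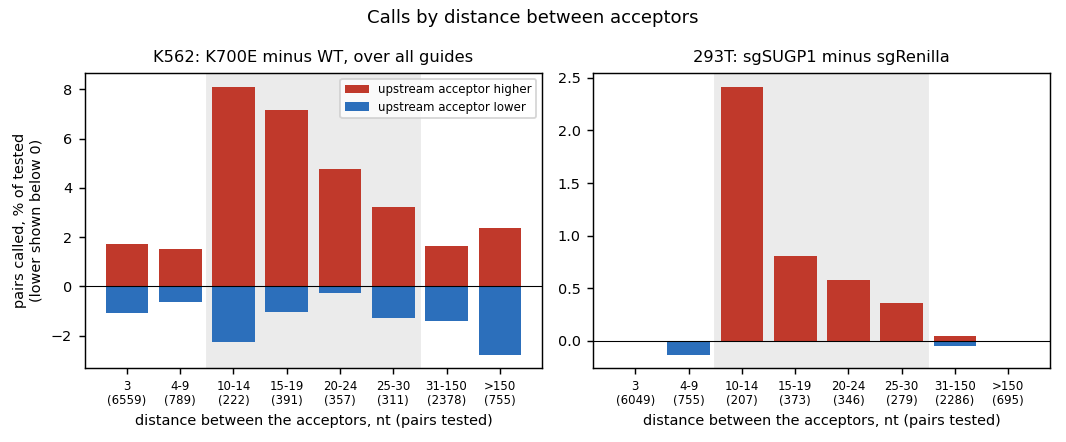
Share of acceptor pairs called, in percent of the pairs tested, by the distance between the acceptors in nt, with the number tested in brackets. Red bars above 0 are pairs whose upstream acceptor was used more, blue bars below 0 pairs where it was used less, for K700E against WT in K562 (left) and for sgSUGP1 against sgRenilla in 293T (right), and the grey band marks 10 to 30 nt. The share of risers with K700E is highest at 10 to 14 nt (8.11%) and 1.74% at 3 nt.

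The largest rise was in GEN1, a nuclease that cuts recombination intermediates, by 54 points (4.67 ± 0.32 SE, limma adjusted p 0.00756). In ACSBG1, which activates long-chain fatty acids, the acceptors lie 12 nt apart in the coding sequence (hg19 chr15:78486350-78486848). Its upstream acceptor was used in 88% with sgRenilla, 79% and 85% with sgGPATCH8, and 84.5% and 84.5% with sgSUGP1 in K700E cells, against 39%, then 45% and 51%, then 44% and 43.5% in WT cells. Every K700E library lay above every WT library, and the average difference was 41.2 points (log2 ratio change 2.80 ± 0.17 SE, limma adjusted p 0.00713). ACSBG1 was the single pair called between K700E and WT with sgSUGP1 (1 of 1281 rose and 0 fell, against 0.0689% and 0.128% of all tested events), by 40.8 points, and leaving out any of the 4 libraries ended this call.

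MYRF, a membrane-bound transcription factor of myelination, has coding acceptors 15 nt apart that share the reading frame. Usage of the upstream one was 58% with sgRenilla, 62% and 62% with sgGPATCH8, and 64% and 59.5% with sgSUGP1 in K700E cells, against 25%, then 22.5% and 24%, then 50% and 49.5% in WT cells. The K700E libraries lay within 6 points of each other, while among WT libraries those with sgSUGP1 were far higher than the rest. The average difference was 27.9 points (1.69 ± 0.12 SE, limma adjusted p 0.00756).

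A pair in noncoding transcripts of BRD9, a subunit of a chromatin remodelling complex, is 10 nt apart (hg19 chr5:869509-870588). Its upstream acceptor was used in 96.5% with sgRenilla, 94.5% and 97% with sgGPATCH8, and 98% and 96.5% with sgSUGP1 in K700E cells, against 32.5%, then 46.5% and 36.5%, then 97.5% and 96% in WT cells. Only the WT libraries with sgSUGP1 reached the level of the K700E libraries. The average over guides, 39.6 points (3.47 ± 0.26 SE, limma adjusted p 0.008), joins a large difference with sgRenilla and sgGPATCH8 to almost none with sgSUGP1.

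DPH5, an enzyme of diphthamide synthesis, gained an acceptor that the annotation lacks. The upstream site, 14 nt before the annotated one in the coding sequence (hg19 chr1:101458296-101460666), was used in 39.5% with sgRenilla, 29.5% and 32% with sgGPATCH8, and 52.5% and 54.5% with sgSUGP1 in K700E cells, against 0.5%, then 0.5% and 1%, then 24% and 43% in WT cells. WT cells with sgRenilla or sgGPATCH8 scarcely used it. The average difference was 29.7 points (3.79 ± 0.27 SE, limma adjusted p 0.00756).

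In the untranslated region of PGBD1, a gene derived from a transposase, the upstream acceptor lies 20 nt away. It was used in 86% with sgRenilla, 86.5% and 92% with sgGPATCH8, and 92% and 95% with sgSUGP1 in K700E cells, against 34%, then 40% and 45.5%, then 92.5% and 93% in WT cells (33.1 points, limma adjusted p 0.0131). As in BRD9, the WT sgSUGP1 libraries lay among the K700E libraries. IL15, a cytokine of lymphocytes, had 78% to 89.5% in K700E libraries and 31% to 79% in WT libraries, which overlapped at a single WT sgSUGP1 library (31.5 points, limma adjusted p 0.0371). DZIP3, an RNA-binding ubiquitin ligase, had 33% to 45.5% in K700E libraries and 4.5% to 33% in WT libraries (26.6 points, limma adjusted p 0.0142). APBB3 and HSF4, described further on, rose by 28.9 and 26.3 points (limma adjusted p 0.0167 and 0.0104). A pair in the pseudogene HERC2P4 also rose, by 27.4 points, but its reads may be shared with near-identical copies.

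Some rises were smaller. SERBP1, an mRNA-binding protein of the ribosome, used its upstream acceptor, 18 nt away and in frame, in 77.5% to 86.5% in K700E libraries and in 54% to 55.5% in WT libraries with sgRenilla or sgGPATCH8, while WT libraries with sgSUGP1 had 84.5% and 87%. Its average difference was 15.8 points (limma adjusted p 0.0227). ERCC3, a helicase of transcription factor TFIIH needed for DNA repair, had 18.5% to 22.5% in K700E libraries and 6.5% to 15.5% in WT libraries, which did not overlap, and rose by 9.92 points (limma adjusted p 0.0142). METTL5, a methyltransferase of ribosomal RNA, rose by 8.33 points at a coding pair 18 nt apart (limma adjusted p 0.0374), and its libraries overlapped, at 11.5% to 27.5% with K700E and 4.5% to 24% with WT.

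Of the 14 pairs that fell, 8 were used over 80% in the WT sgRenilla library, and 2 under 20%. ZNF561, a zinc finger gene, had 50% with sgRenilla, 52% and 52.5% with sgGPATCH8, and 44% and 46.5% with sgSUGP1 in K700E cells, against 90.5%, then 82.5% and 84%, then 58% and 51% in WT cells. The K700E libraries were lower within each guide target, although 1 WT sgSUGP1 library reached the K700E range, and the average difference was −26.9 points (−1.92 ± 0.14 SE, limma adjusted p 0.00795). In WRAP73, a centrosome protein, the downstream acceptor is the one the annotation lacks. The upstream site was used in 59% to 77.5% in K700E libraries and 84.5% to 98% in WT libraries, without overlap, a difference of −20.8 points (limma adjusted p 0.008). RBM18, an RNA-binding protein, differed by −16.4 points (limma adjusted p 0.00768), also in favour of a downstream acceptor outside the annotation, here 10 nt away.
OLAH, a thioesterase of fatty acid synthesis, fell by 20.1 points from low usage, with 2.5% to 11.5% in K700E libraries and 11% to 45% in WT libraries (limma adjusted p 0.0441). PLEKHH2, a protein bound to the actin cytoskeleton, had 61% to 75.5% in K700E libraries and 62% to 90% in WT libraries and fell by 11.9 points (limma adjusted p 0.0468).

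**Figure D2:**
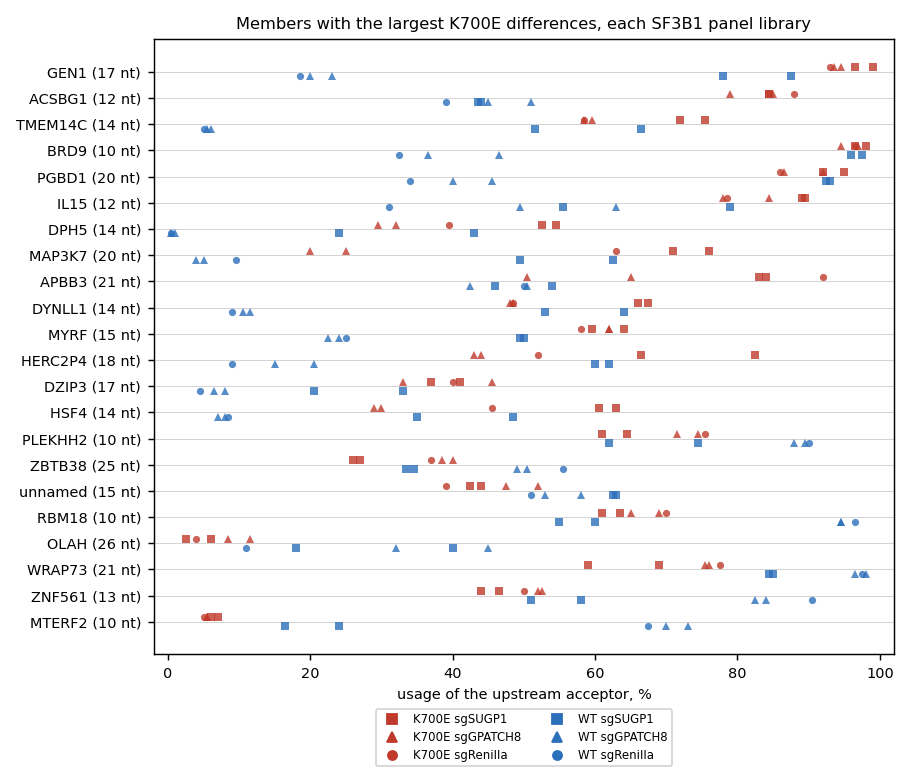
Usage of the upstream acceptor in percent in each library of the SF3B1 panel, for the pairs with the largest differences between K700E and WT. Red marks are K700E libraries and blue marks WT libraries, with the shape giving the guide target, and the distance between acceptors is in brackets. In BRD9 the WT sgSUGP1 libraries, at 97.5% and 96%, lie among the K700E libraries, whereas in ACSBG1 they lie at 44% and 43.5%.

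The risers differed from the other pairs in where they started. Their median usage in the WT sgRenilla library was 9%, against 30.5% for the 1194 pairs not called and 88.5% for the fallers. Usage is bounded at 0 and 100%, and the filter on group means adds to this. Pairs under 5% in every WT group were tested only where a K700E group reached 5%. They could be called only as risers. Pairs over 95% in every WT group were tested only where a K700E group was at 95% or lower. They could be called only as fallers. How far the bounds and the filter set the direction was not tested. The upstream acceptor was missing from the annotation for 17 of 71 named risers (23.9%), 0 of 13 named fallers and 15.9% of the pairs not called. The reading frame was kept in 42 of 73 risers (57.5%), 6 of 14 fallers and 44.4% of the others. In the stretch between the AGs the median share of C and T was 75% for risers and fallers and 70.6% for the others, and a further AG inside it was found in 7 of 56 risers (12.5%), 4 of 13 fallers and 23.5% of the others. These are descriptions without a test.

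Among genes known as targets of mutant SF3B1, a list drawn from the literature with results of these data known, 14 pairs were tested, of which 8 rose and 1 fell, with a median difference of 9.29 points against 0.75 over all tested pairs. The 8 were in BUB1B, DPH5, DYNLL1, ERCC3, MAP3K7, METTL5, SERBP1 and TMEM14C, and the faller was MTERF2. Of 6 pairs in heme synthesis and mitochondrial iron genes, TMEM14C rose and UROD fell, with a median of 2.25 points. UROD, which acts late in heme synthesis, had 14.5% to 16% in K700E libraries and 20.5% to 24.5% in WT libraries and fell by 7 points (limma adjusted p 0.038). For PPOX, the next enzyme but one of that pathway, the pair 19 nt apart differed by 8.67 points without a call (limma adjusted p 0.099). ERCC3 and GEN1 rose among 7 pairs in DNA repair genes, BUB1B among 6 in mitosis genes and MAP3K7 among 4 in MAPK and NF-kappaB genes. No pair rose or fell by the test among 4 in genes of 3′ splice site recognition (DDX42, SUGP2, U2AF1L4 and ZRSR2; median 0.29 points).

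The counts rest on few libraries. With sgRenilla alone, 1 library per genotype, limma called 0 of 1281 pairs and 0% of all events, while 231 pairs had an unadjusted p under 0.05. Without any 1 of the 8 libraries with sgSUGP1 or sgGPATCH8, 24 to 39 calls were made over all guides, against 87 with every library, fewest without the K700E sgGPATCH8 replicate 2 or the K700E sgSUGP1 replicate 1.

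The K700E difference was also measured in cells with sgGPATCH8. There, 30 pairs rose and 5 fell between K700E and WT (0.307% and 0.376% of all tested events), and each of the 4 libraries left out singly ended all of these calls. MTERF2, a mitochondrial transcription factor, had 5.5% and 5.5% in K700E sgGPATCH8 libraries, against 70% and 73% in WT sgGPATCH8 libraries, and fell by 66 points (−5.18 ± 0.25 SE, limma adjusted p 0.0123). GEN1 had 93.5% and 94.5%, against 20% and 23%, and rose by 72.5 points (5.59 ± 0.48 SE). Its sgRenilla libraries were alike, at 93% with K700E and 18.5% with WT. The interaction of K700E and sgGPATCH8 had 0 calls among the pairs by limma (95 at an unadjusted p under 0.05) and 0.0295% over all events.

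A few pairs lay closer to WT in the K700E cells with sgGPATCH8. They were picked with these values in view. APBB3, an adaptor that binds the amyloid precursor protein, had 50.5% and 65% in K700E sgGPATCH8 libraries, against 92% in the K700E sgRenilla library, with 42.5% to 54% over the WT libraries. HSF4, a heat shock transcription factor of the lens, had 29% and 30% in K700E sgGPATCH8 libraries, against 45.5% in the K700E sgRenilla library. MAP3K7, a kinase upstream of NF-kappaB, had 20% and 25%, against 63%. None of the 3 passed the test of the interaction (limma adjusted p 0.239 for APBB3, 0.704 for HSF4 and 0.465 for MAP3K7), and each rests on 1 sgRenilla library per genotype. In K700E cells sgGPATCH8 against sgRenilla gave 0 called pairs (125 at an unadjusted p under 0.05; 0.0138% of all events called), and in WT cells also 0 (135; 0.00591%).

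In 293T cells sgSUGP1 raised the upstream acceptor of some pairs. The 11 called pairs, of 1205 tested, all rose, against 0.0367% of all tested events that rose and 0.00612% that fell. By distance they were 5 of 207 pairs at 10 to 14 nt, 3 of 373 at 15 to 19 nt, 2 of 346 at 20 to 24 nt and 1 of 279 at 25 to 30 nt. All 11 started low, with a median of 4.5% in the sgRenilla libraries, against 26.5% for the pairs not called. A pair under 5% in those libraries was tested only where another group reached 5%, and could be called only as a riser. How far this sets the direction was not tested. Of the 11 upstream acceptors, 3 (MAP3K7, MINDY4 and TPR) are not annotated.

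ZNF771, a zinc finger gene, had 40%, 47%, 38% and 48% with sgSUGP1, against 8% and 11% with sgRenilla, and rose by 33.8 points (2.75 ± 0.22 SE, limma adjusted p 0.0236). ZNF410, a transcription factor that activates CHD4, had 27%, 32%, 30% and 40%, against 6% and 4%, and rose by 27.2 points (2.96 ± 0.27 SE, limma adjusted p 0.037). E2F7, a repressor of cell cycle genes, had 23%, 35%, 33% and 35%, against 5% and 4%, and rose by 27 points (limma adjusted p 0.0431). In each of these the sgSUGP1 libraries lay far above both sgRenilla libraries. TCEA2, a factor that helps stalled RNA polymerase II, had 22%, 23%, 19% and 24% with sgSUGP1, against 2% and 2% with sgRenilla, and rose by 20 points (3.26 ± 0.22 SE, limma adjusted p 0.0142). TPR, a filament protein of the nuclear pore basket, had 9%, 7%, 10% and 10%, where both sgRenilla libraries are listed at 0, and rose by 9 points. MIPOL1 (30 points), MINDY4 (33.5), STAU2 (23.5), MAP3K7 (31.5), DYNLL1 (35.8) and TMEM14C (40.2) complete the list. The 4 libraries come from 2 guides whose difference is not part of the error, and leaving out any 1 of the 6 libraries gave 0 calls.

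The same 11 pairs were higher in K562 cells, in libraries that played no part in picking them. All 11 were higher with K700E than with WT over all guides, and all 11 were called there. Among pairs not called in 293T, which were not matched for starting usage, 55.6% had the same direction. The filter on group means also acts in K562 cells. There, a pair under 5% in the WT sgRenilla library was tested only where another group of the panel reached 5%. No group could lie 5 points below that library. How far this fixes the direction of the 11 pairs in K562 cells was not tested. With sgGPATCH8 in both genotypes, 11 of 11 were higher with K700E and 8 were called. In WT K562 cells with sgSUGP1 against sgRenilla 11 of 11 were higher, by a median of 34 points, and in K700E cells 11 of 11, by a median of 10.5 points. With sgSUGP1 in both genotypes, K700E and WT differed by a median of 3.75 points, and MIPOL1 and ZNF410 were lower with K700E (by −0.5 and −2.75 points). These K562 comparisons share libraries with each other. In the other direction, of the 87 pairs called for K700E over all guides 72 were tested in 293T, and 63 of these moved the same way with sgSUGP1, against 53.7% of pairs not called for K700E. With sgGPATCH8 in 293T it was 31 of 72, and the pairs not called gave 44.8%. In counts of direction a difference of 0 beside a rise or fall, as for MAP3K7 and WRAP73 here, did not count as the same.

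**Figure D3:**
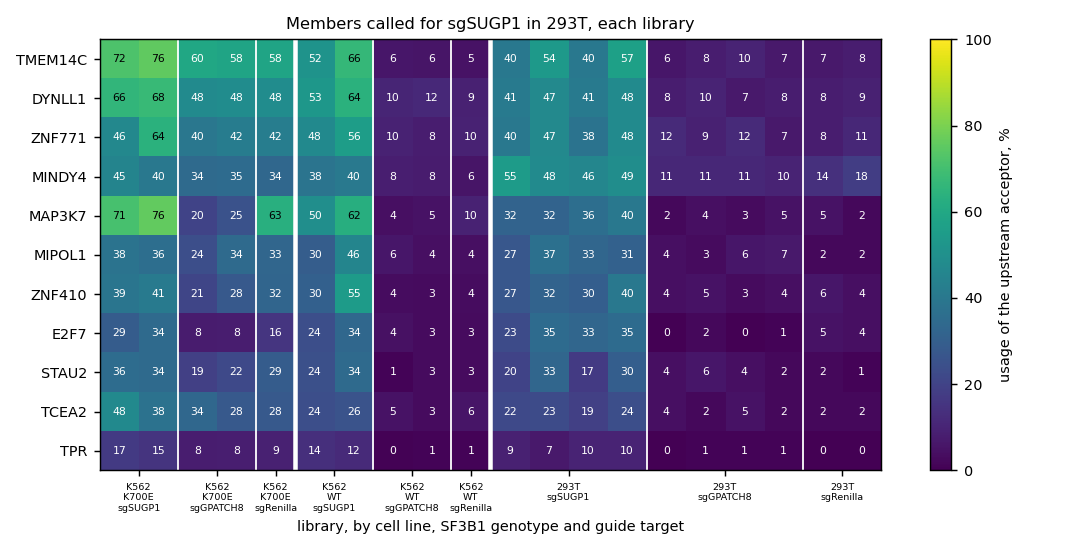
Usage of the upstream acceptor in percent, printed in each cell and given by colour, in each SF3B1 panel and 293T library (columns) for the 11 pairs called for sgSUGP1 in 293T (rows). Within each row the K700E libraries and all sgSUGP1 libraries lie above the WT and 293T libraries with sgGPATCH8 or sgRenilla. MAP3K7 is at 20% and 25% in the K700E sgGPATCH8 libraries and at 63% in the K700E sgRenilla library.

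Few pairs were called for sgSUGP1 within the SF3B1 panel, where the control was 1 library. In WT cells 1 pair rose and 1 fell (0.0118% and 0.00787% of all tested events), and neither was called once 1 of the sgSUGP1 libraries was left out. MINDY4, of a deubiquitinase family, rose by 34 points (limma adjusted p 0.0476). RBM18 had 55% and 60% with sgSUGP1, against 96.5% with sgRenilla, and fell by 39 points (−4.01 ± 0.26 SE, limma adjusted p 0.0476). In 293T cells the RBM18 pair had 75%, 70%, 66% and 73% with sgSUGP1, against 93% and 96% with sgRenilla, all lower, but was not called (limma adjusted p 0.0708). In K700E cells 0 pairs were called for sgSUGP1 by limma (142 at an unadjusted p under 0.05), against 0.0945% of all events.

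The guides against GPATCH8 moved a small set of pairs whose direction recurred from panel to panel. In SRSF2 WT cells 4 pairs rose and 8 fell of 1011 tested (0.207% and 0.285% of all tested events rose and fell). STRN4, CC2D1B, ATF6B and USP33 rose, and TRIP12, a pair of events of INTS14, PICALM, FUZ, USP36, QKI and PRDM4 fell. Leaving out any 1 of the 6 libraries gave 6 or 7 calls, with 6 without WT sgRenilla replicate 1 or 2 or WT sgGPATCH8 replicate 1. All 12 differed in the same direction with sgGPATCH8 in SF3B1 WT, SF3B1 K700E, U2AF1 WT, U2AF1 S34F and 293T cells, none of whose libraries had been used to pick them. Among pairs not called in SRSF2 WT, 47.2% to 51.1% had the same direction in those 5 comparisons. Beside a change of a different kind, S34F against WT with sgRenilla, 5 of the 12 had the direction of sgGPATCH8.

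INTS14 encodes a subunit of the Integrator complex, which processes small nuclear RNAs. Its 3 events join different donors to the same 2 acceptors, 17 nt apart (hg19 65899780 and 65899763 on chromosome 15), and so share their target. For the event with the longest intron the upstream acceptor was used in 45%, 35% and 43% with sgGPATCH8, against 76%, 76% and 80% with sgRenilla in SRSF2 WT cells, and it fell by 36.3 points (−2.25 ± 0.26 SE, limma adjusted p 0.0051). With P95H it was 35%, 39% and 33% with sgGPATCH8, against 87%, 79% and 77% with sgRenilla. The sgGPATCH8 libraries were lower without overlap in both. In the U2AF1 panel it was 32%, 40% and 31%, against 65%, 76% and 87%, with S34F, and 37%, 35% and 41%, against 59%, 67% and 67%, with WT. In the SF3B1 panel it was 46% and 58%, against 90.5%, with K700E, and 36.5% and 39%, against 85.5%, with WT. In 293T cells the 4 sgGPATCH8 libraries had 46%, 63%, 52% and 56%, against 87% and 93% in sgRenilla libraries. No sgGPATCH8 library in any of the 7 settings, a setting being a panel and genotype, reached the sgRenilla libraries of its own setting.

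TRIP12, a ubiquitin ligase, has acceptors 15 nt apart of which the downstream one is not annotated. The upstream acceptor was used in 38%, 37% and 38% with sgGPATCH8, against 75%, 76% and 75% with sgRenilla in SRSF2 WT cells (−37.7 points, −2.28 ± 0.14 SE, limma adjusted p 0.000142). In SRSF2 P95H cells it was 45%, 45% and 39%, against 76%, 76% and 75%. In 293T cells it was 55%, 61%, 50% and 64%, against 84% and 79%. The sgGPATCH8 libraries were lower than every sgRenilla library in each of these. TRIP12 was also lower with sgSUGP1, by −23.2 points in 293T (limma adjusted p 0.135) and −33.2 points in SF3B1 WT cells (limma adjusted p 0.413), neither of them called.

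PICALM, which helps clathrin coats assemble, had 57%, 58% and 59% with sgGPATCH8, against 82%, 83% and 82% with sgRenilla in SRSF2 WT cells (−24.3 points, −1.70 ± 0.14 SE, limma adjusted p 0.000661). In the SF3B1 panel it had 71.5% and 77%, against 92%, with K700E, and 69.5% and 72.5%, against 89.5%, with WT. In 293T cells it had 73%, 81%, 73% and 82%, against 96% and 93%. Its sgGPATCH8 libraries were lower without overlap in each.

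STRN4, a regulatory subunit of phosphatase PP2A, rose with sgGPATCH8. Its upstream acceptor, 21 nt away and in frame (hg19 chr19:47230803-47231151), was used in 45%, 43% and 42% with sgGPATCH8, against 22%, 23% and 22% with sgRenilla in SRSF2 WT cells (21 points, 1.37 ± 0.13 SE, limma adjusted p 0.00142). With P95H it was 39%, 43% and 40%, against 19%, 20% and 23%. In 293T cells it was 37%, 38%, 36% and 33%, against 15% and 19%. In all of these the sgGPATCH8 libraries were about as high as each other and well above the control.

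ATF6B, a transcription factor of the endoplasmic reticulum stress response, had 23%, 26% and 26% with sgGPATCH8, against 9%, 8% and 9% with sgRenilla in SRSF2 WT cells (16.3 points, 1.71 ± 0.14 SE, limma adjusted p 0.000672). With U2AF1 S34F it had 19%, 16% and 18%, against 9%, 5% and 4%, and in 293T 18%, 15%, 18% and 15%, against 6% and 9%. CC2D1B, which binds the membrane-remodelling ESCRT-III machinery, had 53%, 46% and 47% with sgGPATCH8, against 31%, 34% and 31% with sgRenilla in SRSF2 WT cells (16.7 points, 0.99 ± 0.17 SE, limma adjusted p 0.0384). In 293T cells it had 41%, 35%, 39% and 45%, against 16% and 15%. Both genes were higher with sgGPATCH8 in every setting, without overlap.

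**Figure D4:**
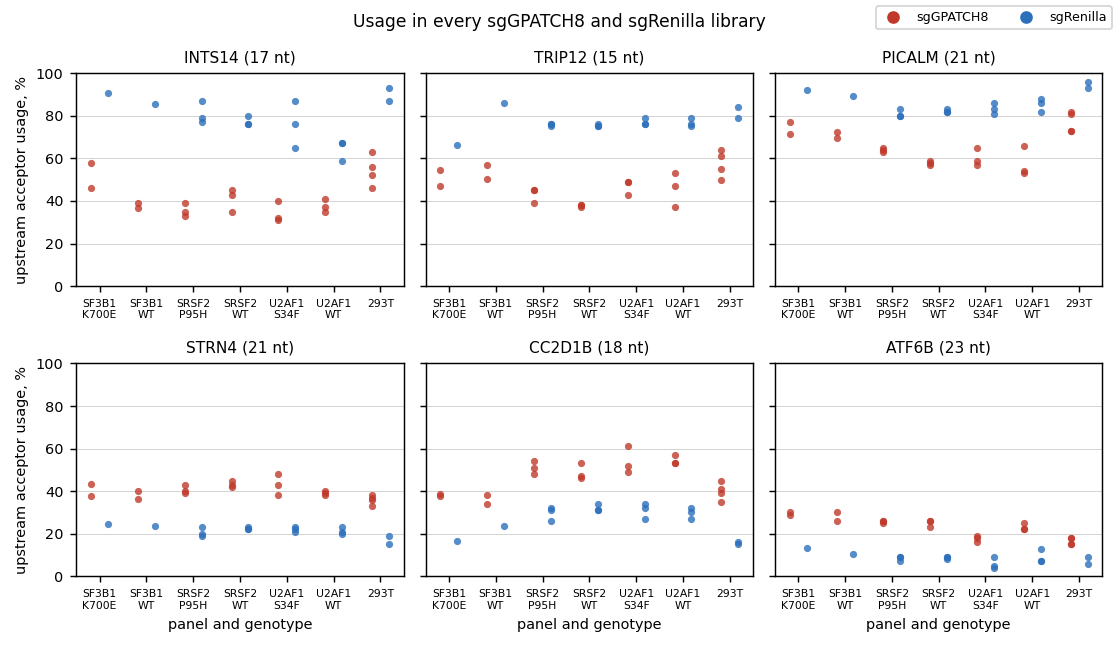
Usage of the upstream acceptor in percent in every sgGPATCH8 library (red, left of each pair) and sgRenilla library (blue, right), by panel and genotype, for 6 pairs called for sgGPATCH8 in SRSF2 WT cells. INTS14, TRIP12 and PICALM are lower with sgGPATCH8 and STRN4, CC2D1B and ATF6B higher in all 7 settings, with no overlap within a setting.

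Averaged over both genotypes, a comparison added after the data were seen, sgGPATCH8 called 13 risers and 27 fallers in the SRSF2 panel. These were 1.29% and 2.67% of the tested pairs, close to the 1.57% and 2.36% of all tested events. In the U2AF1 panel it called 3 risers and 6 fallers, or 0.285% and 0.57% of the tested pairs, against 0.0714% and 0.147% of all tested events. The panels have no library in common. They shared 8 called pairs, which is 20% of the calls in SRSF2 and 88.9% of those in U2AF1, all in the same direction. These 8 lie in 7 genes and use 7 different sets of acceptors. The shared pairs were STRN4, CC2D1B and ATF6B, which rose, and TRIP12, PICALM, the 2 INTS14 events and a CRACR2B event, which fell. The overlap over all tested events was not counted, so whether this share is particular to the pairs cannot be said. CRACR2B, a regulator of calcium entry, has its acceptors 30 nt apart in the untranslated region, and its shared event had 21.5 points less use with sgGPATCH8 in the U2AF1 panel (limma adjusted p 0.0244). With sgGPATCH8 that event differed by −25 points in SF3B1 K700E cells, −2.5 in SF3B1 WT cells and 0.25 in 293T cells. The average over both genotypes in the SF3B1 panel had 0 called pairs (154 at an unadjusted p under 0.05; 0.00984% of all events called). The 40 pairs of the SRSF2 panel had their direction in 33 of 40 cases in SF3B1 WT cells, 36 of 40 in K700E, 34 of 38 in U2AF1 WT, 34 of 38 in S34F and 28 of 35 in 293T. Among pairs not called, 50.6% to 54.4% did. Events of INTS14 and of CRACR2B among the 40 share their acceptors within the gene, so not all 40 are separate. Leaving out 1 library gave 23 to 35 calls in the SRSF2 panel, fewest without P95H sgRenilla replicate 1, and 4 to 8 in the U2AF1 panel, where 5 different libraries each gave 4.

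Another reading of the same recurrence asks whether every sgGPATCH8 library lay on one side of every sgRenilla library of its own setting, in all 7 settings. Of the 787 pairs tested in all panels, 5 were higher in this sense and 4 lower, against 0.174% and 0.247% of 33265 events. The 9 are ATF6B, CC2D1B, CHD4, SLC25A39 and STRN4, and the 2 INTS14 events, PICALM and TRIP12. CHD4, the ATPase of a nucleosome remodelling complex, had 62%, 60% and 59% with sgGPATCH8, against 48%, 50% and 48% with sgRenilla in SRSF2 WT cells, and 56%, 49%, 52% and 49%, against 45% and 38%, in 293T cells. SLC25A39, the mitochondrial importer of glutathione, had 26%, 27%, 25% and 27% with sgGPATCH8, against 16% and 16% with sgRenilla, in 293T cells. This count was also added after the data were seen.

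**Figure D5:**
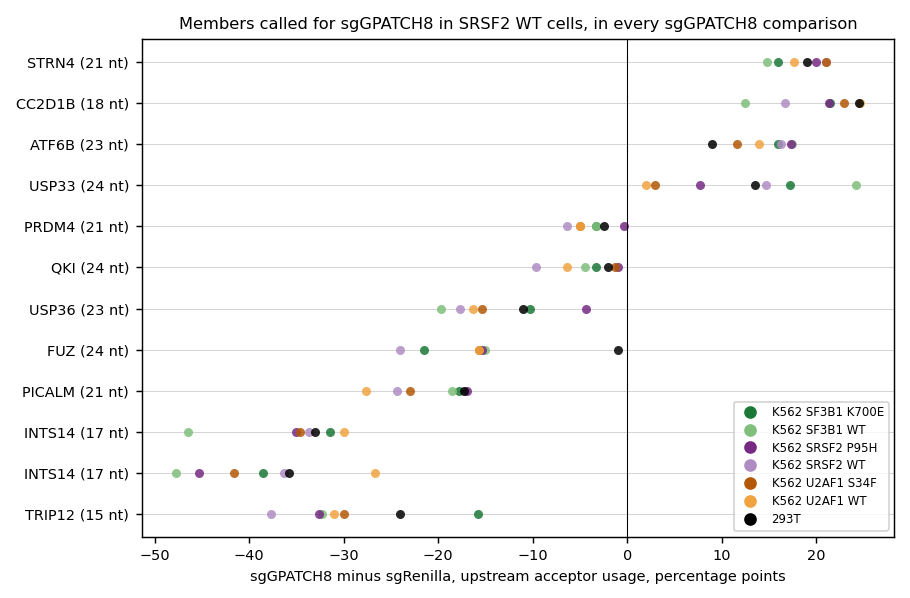
Difference in upstream acceptor usage, sgGPATCH8 minus sgRenilla, in percentage points, for the 12 pairs called in SRSF2 WT cells, in each of the 7 settings, one colour each. For each pair all 7 differences lie on the same side of 0, close to it for PRDM4, QKI and FUZ in some settings and up to −47.8 points for INTS14 in SF3B1 WT cells.

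In single genotypes outside SRSF2 WT the calls were uneven. SRSF2 P95H cells had 15 risers and 17 fallers with sgGPATCH8, or 1.48% and 1.68% of the tested pairs. Both shares are below the 1.89% and 2.95% over all events. With 1 of the 6 libraries left out 13 to 24 calls were found, fewest without the P95H sgRenilla replicate 3. Called pairs there included FGF11 and SFXN2, a mitochondrial carrier, which rose by 27 and 25 points (limma adjusted p 0.0331 and 0.0199), and PTPRH, a receptor phosphatase, and DNHD1, which fell by 33 and 31.7 points. In U2AF1 WT cells 0 pairs were called by limma (83 at an unadjusted p under 0.05; 0.0322% of all events called). With the replicate number as a block, fitted because same-numbered libraries of this comparison deviated together, PICALM and TRIP12 were called, by −27.7 and −31 points (limma adjusted p 0.0209 and 0.0451). U2AF1 S34F cells had 0 without a block (96; 0.0346%), while the block called PICALM and TRIP12 there too, by −23 and −30 points (limma adjusted p 0.0417 and 0.0406), although their same-numbered libraries deviated together less closely. In 293T cells limma called 0 pairs (124 at an unadjusted p under 0.05; 0.0673%), where the control had 2 libraries.

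VEZT, an adherens junction protein, was singled out after its values were seen because the guides moved it in opposite directions. Its upstream acceptor, 12 nt away and in frame, had 76%, 73%, 73% and 68% with sgSUGP1 and 34%, 36%, 34% and 39% with sgGPATCH8, against 52% and 56% with sgRenilla in 293T cells. The 3 groups did not overlap, but neither difference was called (limma adjusted p 0.266 for 18.5 points and 0.247 for −18.2 points). In the SF3B1 panel its usage was 77% and 79.5% with sgSUGP1 and 49.5% and 56.5% with sgGPATCH8, against 62% with sgRenilla in K700E cells, and 70.5% and 72%, then 26% and 28%, against 43% in WT cells. The order of guides was the same in all 3 cell backgrounds.

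The other splicing factor mutations touched few of the pairs. P95H against WT, both with sgRenilla, raised 1 pair and lowered 3 of 1011 (0.0989% and 0.297%), against 0.483% and 0.599% of all tested events. Leaving out 1 of the 6 libraries gave 1 to 3 calls, with 1 without WT sgRenilla replicate 2 or 3 or P95H sgRenilla replicate 1. SLC38A6, an amino acid transporter, had 6%, 6% and 10% with P95H, against 27%, 40% and 34% with WT, and fell by 26.3 points (−2.55 ± 0.35 SE, limma adjusted p 0.0135). NDE1, a partner of dynein, had 6%, 15% and 7%, against 29%, 27% and 39%, at a pair 22 nt apart in noncoding transcripts, and fell by 22.3 points (limma adjusted p 0.0385). COG1, of a Golgi tethering complex, had 13%, 10% and 11%, against 19%, 19% and 22%, and fell by 8.67 points (limma adjusted p 0.0449). DNHD1, related to dynein heavy chains, had 88%, 88% and 86%, against 66%, 62% and 65%, and rose by 23 points (1.86 ± 0.23 SE, limma adjusted p 0.0105). With sgGPATCH8 the P95H libraries of DNHD1 were at 63%, 48% and 56%, and that comparison shares its sgRenilla libraries with the one before. For S34F against WT with sgRenilla limma called 0 pairs (120 at an unadjusted p under 0.05), against 0.0023% of all events. Of the 87 pairs called for K700E, 31 of the 61 tested had the same direction with P95H and 25 of the 65 tested with S34F. Among pairs not called for K700E, 46.4% did with P95H and 46.7% with S34F.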

How the data were processed

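Per the labels, polyadenylated RNA was sequenced as strand-specific paired-end libraries. The authors deposited, for each event, the fraction (0 to 1) of its first isoform, with coordinates in hg19. The submitters' processing notes name RSEM 1.2.4, Bowtie, TopHat and TopHat2 2.0.8b. How reads became fractions is not given in the sources used here, and the read depth is unknown. In the SF3B1 panel the fractions of the runs of a library were averaged. SRSF2 P95H sgGPATCH8 replicate 3 is listed with 2 runs but has a single column of fractions, and which run or runs it holds is not stated. The first isoform used the upstream acceptor in all 2773 pairs. Names and sequences came from GENCODE 29 by exact intron length and strand, with no coordinates converted.

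Fractions became log2 of used over not used, with an offset of 0.01 on both sides, and were fitted with limma 3.58.1 (R 4.3.3) with a trended prior and Benjamini-Hochberg adjustment over all tested events. Guides of 1 target in 293T had separate means of equal weight. The procedure was tested on simulated data. Named pairs are the called ones with the largest differences and those of the gene lists. The pairs, the distance range and the lists were chosen with earlier results of these data known. Same-numbered libraries deviated together only in the U2AF1 panel (correlations 0.152 to 0.402 for S34F and WT with sgRenilla, 0.123 to 0.357 for sgGPATCH8 in U2AF1 WT, but 0.0889 to 0.265 in S34F). Alternatives were another offset, untransformed values, other filters, replicate blocks, single runs and libraries left out. The averages over both genotypes, the count of libraries lying apart in every setting and the requirement of a value in both runs were added after the data were seen.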

Additional observations from a re-analysis of the deposited data

Results flagged for a closer look

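In 293T cells, groups of 4 libraries were examined for 1 library far from the rest, in 86 groups, and 7 were found. Chance alone gives about 1 in 20 for unrounded values of a single kind. These values are rounded and each group mixes guides, so the rate here is unknown. With sgGPATCH8, GEN1 had 29% in guide 16 replicate 2 and 10% to 13% in the other libraries. ACSL6, an acyl-CoA synthetase, had 38% in guide 17 replicate 1 and 84% to 90% in the others. MTERF2 had 85% in guide 17 replicate 2, where the others had 76% to 77%, and MINDY4 had 10% there, where the others had 11%. With sgSUGP1, guide 3 replicate 1 stood apart in HSF4 (29%, others 45% to 47%), E2F7 (23%, others 33% to 35%) and FUZ (6%, others 5%). The gaps of MINDY4 and FUZ are 1 step of the rounded values.

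FGF11, a growth factor family member, went in opposite directions with sgGPATCH8 in the SRSF2 panel, among 15 pairs of differences examined. It was 27 points higher in P95H cells (51%, 54% and 42% with sgGPATCH8, against 32%, 23% and 11% with sgRenilla) and changed by −19 points in WT cells (14%, 11% and 18%, against 29%, 35% and 36%). The difference between the genotypes was not tested.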

How the results depend on the processing

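Counts of called pairs are given here where an alternative moved them by more than 1.5 times, and the cause was not tested. With 1 control library per genotype or target, the SF3B1 panel moved most. The 87 calls for K700E over all guides were 10 with run 1 alone and 24 with run 2 alone. With sgRenilla alone, where the count was 0, it was 2 with an offset of 0.05, 6 on untransformed values, 12 with no filter on group means, 1 adjusted over alternative 3′ splice sites, 1 with run 2, 35 with both runs as columns and 2 with a value required in both runs. With sgGPATCH8 (35) it was 23 untransformed, 1 with run 1, 20 with run 2 and 76 with both runs as columns. With sgSUGP1 (1) it was 0 with the other offset, untransformed, with 1 missing value allowed, adjusted over alternative 3′ splice sites or with run 1, 8 with run 2, 5 with both runs as columns and 3 with a value in both runs.

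For sgSUGP1 in SF3B1 WT (2) the count was 9 untransformed, 17 with no filter, 23 adjusted over alternative 3′ splice sites, 73 with both runs as columns, 13 with a value in both runs, and 0 with a missing value allowed or with either run alone. For sgSUGP1 in K700E (0) it was 1 with the other offset, 1 untransformed, 2 with no filter, 6 with run 2 and 1 with a value in both runs. For sgGPATCH8 it was 1 untransformed, 5 with no filter and 7 with both runs as columns in SF3B1 WT (0), 1 with no filter and 9 with both runs as columns in K700E (0), and 7, 21 and, with a value in both runs, 3 over both (0). The interaction (0) had 1 untransformed. Columns of 2 runs of a library are not separate samples, so those counts are no evidence.

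For P95H (4) the count was 2 adjusted over alternative 3′ splice sites. The same adjustment gave 7 for sgGPATCH8 in SRSF2 WT (12), 15 in P95H (32) and 17 over both (40), which fell to 26 with a minimum of 10 points. With no filter S34F (0) had 1, sgGPATCH8 in U2AF1 WT (0) had 1, and in S34F (0) 2, also 2 untransformed. For sgSUGP1 in 293T (11) it was 18 with the other offset, 19 untransformed, 27 with no filter, 5 with a missing value allowed, 23 adjusted over alternative 3′ splice sites and 20 with one mean per target. For sgGPATCH8 in 293T (0) it was 2 untransformed, 4 with no filter and 8 with one mean per target.

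With a replicate block the count was 49 for K700E over all guides, 15 with sgGPATCH8, 0 with sgSUGP1, 0 for sgSUGP1 in SF3B1 WT, 2 for P95H, 6 for sgGPATCH8 in SRSF2 WT, 2 in U2AF1 WT, 2 in U2AF1 S34F, 8 over both U2AF1 genotypes and 0 for sgSUGP1 in 293T. In the SF3B1 panel same-numbered K700E and WT libraries of a target also share their guide, a match that the main fit leaves out. In the SRSF2 and 293T panels nothing but the number is known to be shared. With 1 library left out the count was 24 to 39 for K700E over all guides, 1 to 3 for P95H, 6 to 7, 13 to 24 and 23 to 35 for sgGPATCH8 in SRSF2 WT, in P95H and over both, 0 to 2 in U2AF1 S34F, 4 to 8 over both U2AF1 genotypes, and 0 for the other comparisons where a library could be left out.

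Of single named pairs, 570 values kept their side of the threshold and 104 did not under the other settings, and 340 and 236 with a library left out, with 0 reversed. Values are fractions in steps of a hundredth with unknown depth, so counting error is not given and small differences at low usage are coarse.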
